A study of Mus musculus with 9 samples.

Results

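Of 9 mouse T-cell lymphomas profiled on expression arrays, 4 carried transcripts of the exocrine pancreas and 5 did not, and these sides of the series are compared here gene by gene. The sides were chosen by the elastase gene Cela3b: an array is counted as carrying pancreatic transcripts where the highest of its 4 Cela3b probe sets had a signal above 1000. The 4 arrays with pancreatic transcripts were telomerase 3, ALT 1, ALT 2 and ALT 5; the 5 without were the parental tumour, telomerase 1, telomerase 2, ALT 3 and ALT 4. Because the sides were set by a measured value, every difference between them is given as a description with its standard error and no p-value.

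All 9 tumours came from G3 Atm-/- mice that carry TERT-ER, and all were grown in SCID recipients. Atm is a kinase that signals DNA breaks, G3 is the label's name of the mouse generation, and TERT-ER is a fusion of the telomerase reverse transcriptase with the oestrogen receptor that works only when 4-hydroxytamoxifen (4-OHT) is present. SCID mice lack mature T and B cells but keep their other organs and their myeloid and stromal cells. The 3 telomerase tumours were at passage 4, in recipients kept on 4-OHT. The 5 ALT tumours were also at passage 4; they came from recipients on vehicle and had become resistant through alternative lengthening of telomeres (ALT), a way to keep telomeres by recombination. The parental tumour, the only array of its group, is labelled as telomerase-positive and was counted with the telomerase tumours in the fits. The labels do not tell if the tumours of 1 group grew in separate animals, where in the body they were taken, or if any was pooled. The p-values below therefore reflect the spread among these 9 arrays alone, which may be technical.

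Acinar cells make up most of the pancreas. They store digestive enzymes as inactive precursors in zymogen granules and release them into ducts when the gut hormone cholecystokinin or acetylcholine reaches them, while the islets, which secrete hormones into the blood, lie scattered among them. Messenger RNAs of the enzymes are among the most abundant of any tissue, and neither T cells nor T-cell lymphomas are known for making them. Transcription of the enzyme genes is driven by the PTF1 complex, in which Ptf1a pairs with an E-protein and with Rbpjl or Rbpj and binds an E-box next to a second element, the TC-box.

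The arrays of both sides were alike in overall signal. Median signals lay between 41.8 and 43.8 in arrays with pancreatic transcripts and between 39.8 and 42.4 in those without, and upper quartiles between 196 and 210 and between 194 and 208. The 3' to 5' signal ratio of the Gapdh control, a measure of RNA integrity, ran from 1.12 to 1.28 with and from 1.08 to 1.15 without pancreatic transcripts, and that of the actin control from 2.02 to 2.38 and from 2.00 to 2.40. The part of these ratios in the differences below was not tested. T-cell markers were strong on both sides, as the label has it: Cd3d, a chain of the T-cell receptor complex, had signals of 6700 to 9308 with and 7238 to 9846 without pancreatic transcripts. Transcripts of the skeletal muscle list had a summed signal of 15826 in the parental array and 10354 in telomerase 1, 803 in telomerase 2 and 418 to 493 in the other 6; the first 2 of these arrays are on the side without pancreatic transcripts.

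The marker enzymes divided the arrays with a wide gap. Cela3b, a pancreatic elastase, had signals of 20116 in telomerase 3, 16774 in ALT 1, 21311 in ALT 2 and 20972 in ALT 5. The probe set read 13.9 in the parental array, 48.0 in telomerase 1, 23.1 in telomerase 2, 170 in ALT 3 and 78.2 in ALT 4. ALT 1, with 16774, was thus the array nearest to the threshold from above and ALT 3, with 170, the nearest from below. Ctrb1, the precursor of chymotrypsin B, was at 12701 in telomerase 3, 10772 in ALT 1, 12420 in ALT 2 and 12842 in ALT 5, and at 3.39 in the parental array, 13.2 in telomerase 1, 4.05 in telomerase 2, 77.8 in ALT 3 and 26.6 in ALT 4. Clps, the colipase that anchors lipase to fat droplets, was at 10645, 7112, 12650 and 15338 in telomerase 3, ALT 1, ALT 2 and ALT 5, and between 4.04 and 42.5 in the others. For all 5 markers (Cela3b, Cela2a, Cpa1, Ctrb1 and Clps) the 2 sides did not overlap on any probe set, and ALT 3 was the highest of the 5 arrays without pancreatic transcripts on the probe set used. In a bulk sample, more acinar cells and more of these RNAs per cell cannot be told apart.

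**Figure D1:**
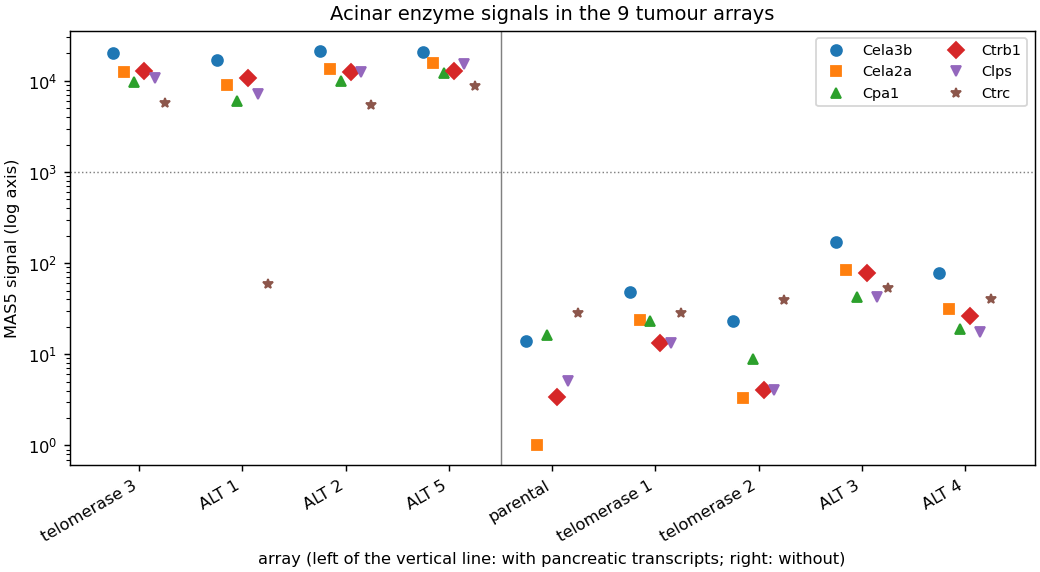
MAS5 signal (log axis) of 6 acinar enzyme genes in each of the 9 arrays, 1 point per gene and array; the dotted line is the Cela3b threshold of 1000. The 4 arrays on the left hold all 5 markers at 6026 or above while the 5 on the right hold them at 170 or below; Ctrc, which is no marker, is at 59.1 in ALT 1.

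Promoters of 5 of these enzyme genes are shown because the enzyme genes are known targets of PTF1 and were high in the same arrays. Each window runs from 250 bases before to 50 after the annotated start, 5' to 3' on the gene's strand, from RefSeq on GRCm38.p6. Capitals mark 2 motifs searched on both strands, TTTCCCA (the TC-box element of a PTF1 site) and CACCTG (its E-box element).
Cela3b (chr4:137430471-137430770, minus strand): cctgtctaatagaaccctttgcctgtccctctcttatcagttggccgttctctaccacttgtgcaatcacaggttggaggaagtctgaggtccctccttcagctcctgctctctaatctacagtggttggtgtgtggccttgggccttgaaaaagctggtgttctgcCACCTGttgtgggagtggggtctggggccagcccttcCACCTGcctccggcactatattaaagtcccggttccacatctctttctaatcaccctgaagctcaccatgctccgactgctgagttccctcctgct
Cela2a (chr4:141825956-141826255, minus strand): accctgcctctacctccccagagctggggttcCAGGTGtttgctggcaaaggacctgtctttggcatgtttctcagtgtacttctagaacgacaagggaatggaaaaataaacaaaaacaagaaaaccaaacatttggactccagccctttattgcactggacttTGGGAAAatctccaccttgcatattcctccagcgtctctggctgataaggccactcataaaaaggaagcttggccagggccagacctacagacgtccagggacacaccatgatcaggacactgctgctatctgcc
Cpa1 (chr6:30638968-30639267, plus strand): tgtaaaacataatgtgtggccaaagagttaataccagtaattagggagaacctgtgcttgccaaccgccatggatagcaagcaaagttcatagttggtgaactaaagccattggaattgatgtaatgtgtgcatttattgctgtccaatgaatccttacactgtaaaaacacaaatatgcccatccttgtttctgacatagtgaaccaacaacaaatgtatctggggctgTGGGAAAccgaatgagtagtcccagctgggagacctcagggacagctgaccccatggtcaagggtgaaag
Ctrb1 (chr8:111690961-111691260, minus strand): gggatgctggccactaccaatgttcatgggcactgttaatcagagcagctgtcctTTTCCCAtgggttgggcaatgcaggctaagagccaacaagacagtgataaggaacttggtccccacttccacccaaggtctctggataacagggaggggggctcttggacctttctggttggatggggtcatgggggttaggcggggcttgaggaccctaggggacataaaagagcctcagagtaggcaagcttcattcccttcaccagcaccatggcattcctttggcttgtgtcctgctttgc
Cel (chr2:28563354-28563653, minus strand): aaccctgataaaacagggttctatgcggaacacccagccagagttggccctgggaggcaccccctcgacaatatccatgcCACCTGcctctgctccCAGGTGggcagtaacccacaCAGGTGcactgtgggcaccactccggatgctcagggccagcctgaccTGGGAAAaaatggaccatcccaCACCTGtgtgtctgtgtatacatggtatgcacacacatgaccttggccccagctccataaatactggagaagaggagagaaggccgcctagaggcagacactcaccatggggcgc
Cela2a and Cel held both motifs, Cpa1 and Ctrb1 held TTTCCCA alone, and Cela3b held CACCTG alone, at 2 places. Of the 27 acinar secreted genes counted below as higher, 21 had an entry in the promoter table, with 22 windows between them. TTTCCCA was present in 5 of these 22 windows and in 8.06% of all 32851 promoter windows, CACCTG in 12 of 22 and in 20.2%, and both in 3 of 22 and in 1.61%. Among the genes with TTTCCCA, Cel, Cela2a, Cpa1 and Ctrb1 are shown and Prss2 is not, so the windows shown are richer in this motif than the 22. Clps had no entry, and Cel, which is no marker, is shown beside the other markers. The matches are letters in a window and not shown to be bound sites.

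Across the 12368 genes tested, 125 were higher in the arrays with pancreatic transcripts, by at least 1 on the log2 scale and with no overlap between the sides, which is 1.01% of the tested genes, and 9 were lower (0.0728%). All differences are of log2(signal + 16), fitted with a term for the telomere group; the added 16 makes the difference of weak genes smaller. Without a minimum size, signals did not overlap for 278 genes that were higher (2.25%) and 148 that were lower (1.2%). The median difference over all tested genes was −0.02. Of the 125, 54 belonged to a list of this report and 71 to none. The values that set the sides come from the same arrays, so these counts describe the sides and support nothing beyond that. Just inside the minimum lay Tob1, an antiproliferative protein, and Retreg1, a receptor for autophagy of the endoplasmic reticulum, each with a difference of 1.03 and not counted in 2 of the 9 recounts without 1 array (Tob1 without ALT 4 or ALT 5, Retreg1 without telomerase 3 or ALT 5), and just outside it Chga, a granule protein of hormone cells, with 0.96.

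Secreted products of acinar cells made up the top of the ranking. The lists held 45 of them; 31 had a probe set of their own, 29 passed the filter on low signals, and 27 of these 29 were higher and 0 lower, with a median difference of 7.18 against −0.02 for all genes. A gene could pass that filter through the 4 arrays in which it was high, so this share is a description of the genes that passed and not of the whole list. Shares and medians of the lists below are limited in the same way. The exceptions were Rab3d and Rab27b, small GTPases that dock secretory granules and work in many cell types, with differences of 0.28 (SE 0.11) and 0.10 (SE 0.14).

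All 12 proteases that passed were higher, with a median difference of 7.53. Cela2a, an elastase, read 12427 in telomerase 3, 9099 in ALT 1, 13547 in ALT 2 and 15728 in ALT 5 against 1.00 to 83.8 in the others (difference 8.10, SE 0.38). Cpa1, which trims amino acids from the carboxyl end, read 9756, 6026, 9875 and 12120 in the same order against 8.96 to 42.2 (7.89, SE 0.25). Cpb1, its relative for basic residues, had a difference of 8.08 (SE 0.28), and Prss2, a trypsinogen, one of 7.96 (SE 0.25). 2210010C04Rik, which the annotation names only by its clone and which was in no list, had signals of 14530 to 21062 against 4.71 to 96.3 and a difference of 8.52 (SE 0.35). Trypsinogens and the glandular kallikreins form families of close copies, so their probe sets may share signal; Klk1, the tissue kallikrein, was at 2729 to 9529 against 9.32 to 24.9.

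A pair of proteases departed from the common pattern. Ctrc, the chymotrypsin that degrades trypsinogen, was at 5661 in telomerase 3, 5501 in ALT 2 and 8779 in ALT 5 but at 59.1 in ALT 1, close to the highest array without pancreatic transcripts (53.7 in ALT 3). Its difference of 5.49 therefore had an SE of 1.22, the largest of the protease list; the gene has a single probe set. Cela1, an elastase that is also made outside the pancreas, ran from 1633 in ALT 1 and 2701 in telomerase 3 to 8896 in ALT 2 and 18940 in ALT 5, and had 156 to 279 in the arrays without pancreatic transcripts (4.29, SE 0.57).

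Lipid-digesting and nucleic-acid-digesting products showed the same split. All 5 lipases and cofactors that passed were higher, with a median of 7.81. Cel, the bile-salt-activated lipase, was at 5879 in telomerase 3, 4404 in ALT 1, 8793 in ALT 2 and 16358 in ALT 5 against 5.37 to 19.1 (difference 7.94, SE 0.32). Pla2g1b, the secreted phospholipase, spread further, from 326 in ALT 1 to 5628 in ALT 5, against 1.91 to 7.47. The ribonuclease Rnase1 was at 2143 to 10703 against 2.88 to 14.2 (7.46, SE 0.38), and Amy1, an amylase whose relatives of the pancreas had no single-gene probe set, was at 841 to 3618 against 13.7 to 29.3 (5.13, SE 0.37).

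Granule membrane proteins and inhibitors were also high. Zg16, a lectin of the zymogen granule, had the largest difference of any tested gene with 16 added to each signal: 6477 in telomerase 3, 3700 in ALT 1, 6986 in ALT 2 and 13049 in ALT 5 against 1.00 to 3.74 (8.55, SE 0.30). The rank rests on the added value, which exceeds all 5 low signals; with 64 added Zg16 had 6.69 and was 9th, and 2210010C04Rik had 7.44 and was first. Gp2, the main glycoprotein of the granule membrane, was at 2974 to 7079 against 3.23 to 22.7 (7.33, SE 0.25), and Sycn, syncollin, at 3854 to 12358 against 13.7 to 45.1 (7.44, SE 0.32). Dmbt1, a scavenger receptor secreted by many epithelia, was highest in telomerase 3, at 7554, and lowest in ALT 1, at 3724 (7.18, SE 0.21). Tff2, a trefoil peptide of mucus-secreting cells, was at 172 to 3434 against 11.8 to 22.3 (4.12, SE 0.68).

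Reg proteins are small lectins that acinar cells secrete, more so after injury. Of the 7 listed, all passed the filter and 6 were higher, with a median difference of 5.30. Reg1 was at 8176 in telomerase 3, 7391 in ALT 1, 11600 in ALT 2 and 14847 in ALT 5 against 21.0 to 64.8 (7.53, SE 0.22). Reg3b was at 5736, 3167, 2834 and 6909 against 3.17 to 16.1 (7.39, SE 0.28), so telomerase 3 was second highest for this gene. Reg4, which is made mainly in the gut, overlapped between the sides, with 25.7, 6.60, 39.6 and 116 against 3.64 to 32.4 (0.65, SE 0.47). Together, the probe sets of the acinar secreted products and Reg genes took 1.59% of the summed signal of telomerase 3, 1.21% of ALT 1, 1.93% of ALT 2 and 2.77% of ALT 5, and between 0.00975% and 0.0176% in the arrays without pancreatic transcripts.

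**Figure D2:**
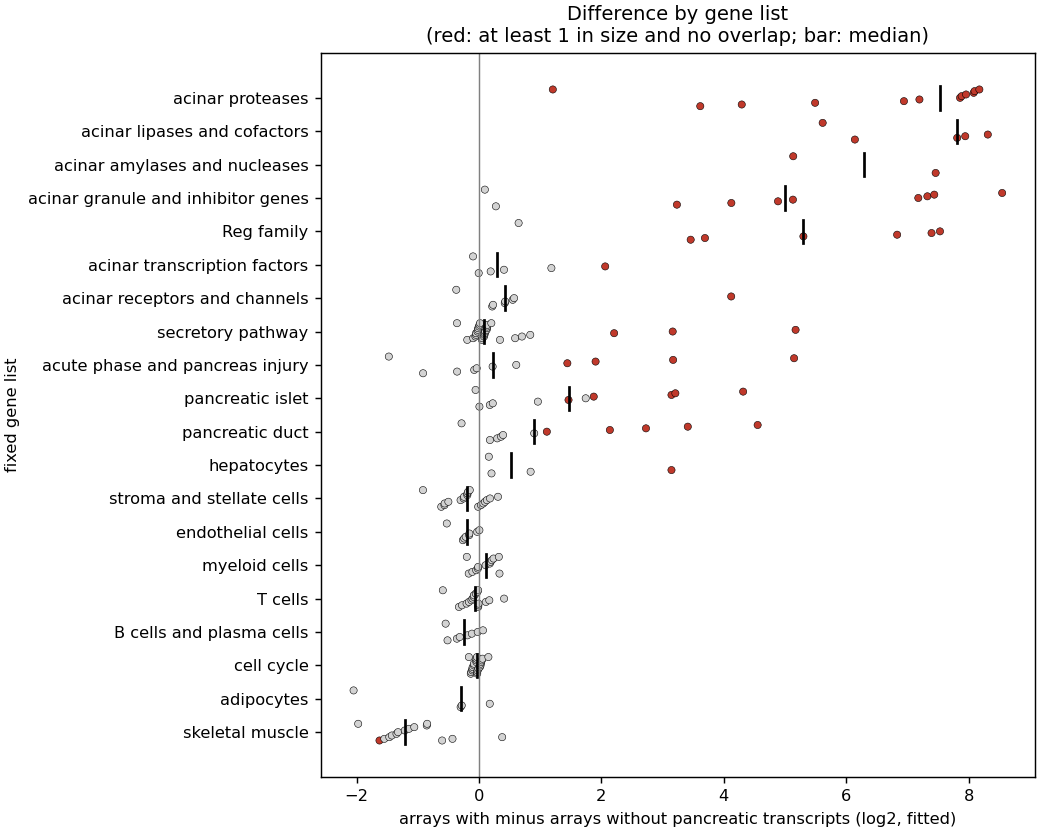
Fitted log2 difference (arrays with minus arrays without pancreatic transcripts) of each tested gene in 20 fixed lists; red points differ by at least 1 with no overlap and bars are list medians. Secreted acinar products and Reg genes lie mostly above 3, and islet and duct lists are split. T-cell, stromal and cell cycle lists have medians near 0.

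Of the regulators of acinar cells, 1 followed the sides by the size used here. Ptf1a, the defining factor of acinar transcription, was at 120 in telomerase 3, 75.6 in ALT 1, 117 in ALT 2 and 136 in ALT 5 against 12.4 to 21.2 (difference 2.06, SE 0.18), with no overlap. Of 6 tested transcription factors it was the one counted as higher; the list had a median difference of 0.30. Its partner Rbpjl fell below the filter, at 6.99 to 13.7 with and 11.5 to 23.0 without pancreatic transcripts. Nr5a2, Gata6 and Hnf4a, which also act in acinar cells, had differences of 0.19, 0.00 and −0.10.

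Bhlha15 (Mist1), which enlarges the secretory machinery of acinar and plasma cells, did not follow the sides. It was at 122 to 272 in the arrays with pancreatic transcripts, but also at 115 in ALT 3 and 160 in ALT 4, and at 3.88 to 8.91 in the parental, telomerase 1 and telomerase 2 arrays. The sides overlapped within ALT, where the difference was 0.24; within the telomerase arrays it was 2.69. With a term for the side, Bhlha15 was higher in ALT by 1.88 (SE 0.43, limma adjusted p = 0.0107). This rests on 1 of its 2 probe sets: the other read 34.4 to 50.5 in the parental and telomerase arrays and 19.4 to 48.7 in ALT. Xbp1, a factor of secretory cells and of the unfolded protein response, also read higher in every ALT array (3330 to 4708) than in the 3 telomerase-positive arrays without pancreatic transcripts (2088 to 2308), with 3751 in telomerase 3; its ALT difference was 0.44 with the term for the side (adjusted p = 0.0313), and it was no longer called in 6 of the 9 fits that leave out 1 array: those without the parental array, telomerase 1, telomerase 2, ALT 1, ALT 3 or ALT 4. It was 0.66 without telomerase 3.

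Among receptors and channels of acinar cells, Cckar, the receptor for cholecystokinin, stood alone. It was at 343 in telomerase 3, 190 in ALT 1, 243 in ALT 2 and 753 in ALT 5 against 1.00 to 10.7 (difference 4.12, SE 0.34). It was 1 of 8 tested members counted as higher, and the water channel Aqp12, at 121 to 214 against 95.5 to 114, did not overlap but had a difference of 0.57. Of 5 tested enzymes of amino acid use, Gatm, which makes the creatine precursor and is abundant in acinar cells, was at 129 to 323 against 17.4 to 60.8 (2.00, SE 0.30), and the methyltransferase Gnmt had a difference of 1.20 (SE 0.35), which was 0.88 and not counted without ALT 5.

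Genes of the secretory pathway, which folds and exports proteins, mostly did not differ by the size used here. Of 30 tested genes 3 were higher and 0 lower. Pdia2, a disulfide isomerase largely restricted to the pancreas, was at 912, 344, 836 and 3000 in telomerase 3, ALT 1, ALT 2 and ALT 5 against 4.72 to 19.1 (5.17, SE 0.51). Tmed6 had a difference of 3.17 (SE 0.51), and Erp27, a non-catalytic relative of the isomerases, one of 2.21 (SE 0.30). Sel1l, which helps remove misfolded proteins, did not overlap either, at 704 to 1368 against 415 to 527, but its difference was 0.84 (SE 0.18). Herpud1, of the same removal pathway, differed by 0.70 (SE 0.17) with overlap. Hspa5, the main chaperone of the endoplasmic reticulum, differed by 0.14 (SE 0.10), the chaperone Canx by −0.02 (SE 0.10) and Sec61b, of the channel into the reticulum, by −0.05 (SE 0.07). The median of the list was 0.09.

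Several hormone genes of the islets were high in the same arrays, though not in the same order, and others overlapped. The list held 23 islet genes, of which 21 had a probe set of their own and 11 passed the filter on low signals. Of these 11, 5 were higher and 0 lower, with a median of 1.46. A gene could pass through the arrays in which it was high, so these values describe only the genes that passed. Ins2, an insulin gene, was at 212 in telomerase 3, 556 in ALT 1, 1013 in ALT 2 and 633 in ALT 5 against 3.09 to 12.6 (4.32, SE 0.31). Iapp, which beta cells secrete with insulin, was at 151, 383, 395 and 167 against 6.68 to 17.9 (3.21, SE 0.27). Gcg, the glucagon gene of alpha cells, was at 415 in ALT 2 and 219 in ALT 5 but at 31.8 in ALT 1 and 15.3 in telomerase 3, against 4.75 to 11.5 (1.88, SE 0.64; 2.82 without telomerase 3). Ppy, of the cells that make pancreatic polypeptide, was at 206 in ALT 1, 67.0 in telomerase 3 and 38.1 in ALT 2 but at 3.06 in ALT 5, so the sides overlapped. Sst, the somatostatin gene of delta cells, was at 78.4 in telomerase 3, 85.6 in ALT 1, 127 in ALT 2 and 86.3 in ALT 5 against 66.8 to 81.9 (0.23, SE 0.15), with overlap. Telomerase 3 was the lowest of the 4 for 4 of the 5 islet genes counted, ALT 2 was the highest for 3, and ALT 5 for 1. The islet factors Pdx1 and Neurod1 lay below the filter, at 7.71 to 26.6 and 8.35 to 21.3 in the 4 arrays against 9.68 to 19.4 and 7.49 to 14.3.

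Epithelial genes of the duct list divided as well. Of 11 tested, 5 were higher and 0 lower. Krt18 and Krt8, keratins of simple epithelia that acinar cells also make, had differences of 4.55 (SE 0.30) and 3.41 (SE 0.22). Krt18 was at 529 in telomerase 3, 939 in ALT 1, 1072 in ALT 2 and 1415 in ALT 5 against 5.36 to 57.2. Krt19, the keratin that marks duct cells, was at 37.5, 46.0, 93.0 and 93.5 against 9.61 to 27.7 (1.11, SE 0.21; 0.99 and not counted without ALT 4), and Muc1, a membrane mucin, had a difference of 2.73 (SE 0.27). The duct markers Sox9 and Cftr fell below the filter, at 5.44 to 42.2 and 9.89 to 36.6 in the 4 arrays. Outside the lists, Dsp, a desmosome plaque protein, had a difference of 2.36 (SE 0.24), Dsg2, a desmosome cadherin, 1.94 (SE 0.21), and the tight junction proteins Cldn3 and Cldn7 had 1.62 (SE 0.21) and 1.61 (SE 0.25).

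Of 11 tested genes of the injury and acute phase list, 4 were counted as higher and 0 as lower, with a median of 0.22. Nupr1, a stress-induced chromatin protein first described in pancreatitis, was at 1517 in telomerase 3, 3518 in ALT 1, 5267 in ALT 2 and 9245 in ALT 5 against 59.0 to 116 (5.15, SE 0.36). Clu, the secreted chaperone clusterin, was at 2112, 3709, 3585 and 6454 against 260 to 441 (3.17, SE 0.26). The metallothioneins Mt1 and Mt2, which bind zinc and copper, had differences of 1.91 (SE 0.24) and 1.44 (SE 0.33), with no overlap, although Mt2 in ALT 4 (885) came close to Mt2 in telomerase 3 (888). Saa3, an acute phase protein, was instead highest in ALT 3 and ALT 4, at 409 and 440, with 23.4 to 128 elsewhere, and Hmox1, the haem oxygenase, was highest in ALT 3 at 718. Of 14 genes of the immediate early and stress list, Nupr1 was the only one counted.

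The 4 arrays differed among themselves by set of genes. For 109 of the 125 genes ALT 5 was the highest, ALT 1 for 7, ALT 2 for 6 and telomerase 3 for 3. The lowest of the 4 was ALT 1 for 58 genes, telomerase 3 for 50, ALT 2 for 15 and ALT 5 for 2. ALT 1 was the lowest for 23 of the 27 acinar secreted genes. Telomerase 3 was the lowest for all 5 counted genes of the duct list, all 4 of the injury list and 4 of 5 of the islet list. Krt8 and Krt18 of the duct list are also made by acinar cells, and Muc1 was at 96.1 in telomerase 3 and 100 in ALT 1. The 3 genes highest in telomerase 3 were Dmbt1, given above, and Cd163 and Cd209f, receptors of tissue macrophages, at 139 and 133 there against 34.6 to 99.2 and 59.7 to 85.4 in the other 3. Among the arrays without pancreatic transcripts, ALT 3 was the highest for 45 of the 125 genes and each of the others for 19 to 22. Many of these signals were near or below 16, where the order is not dependable. The same share over all tested genes was not counted.

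**Figure D3:**
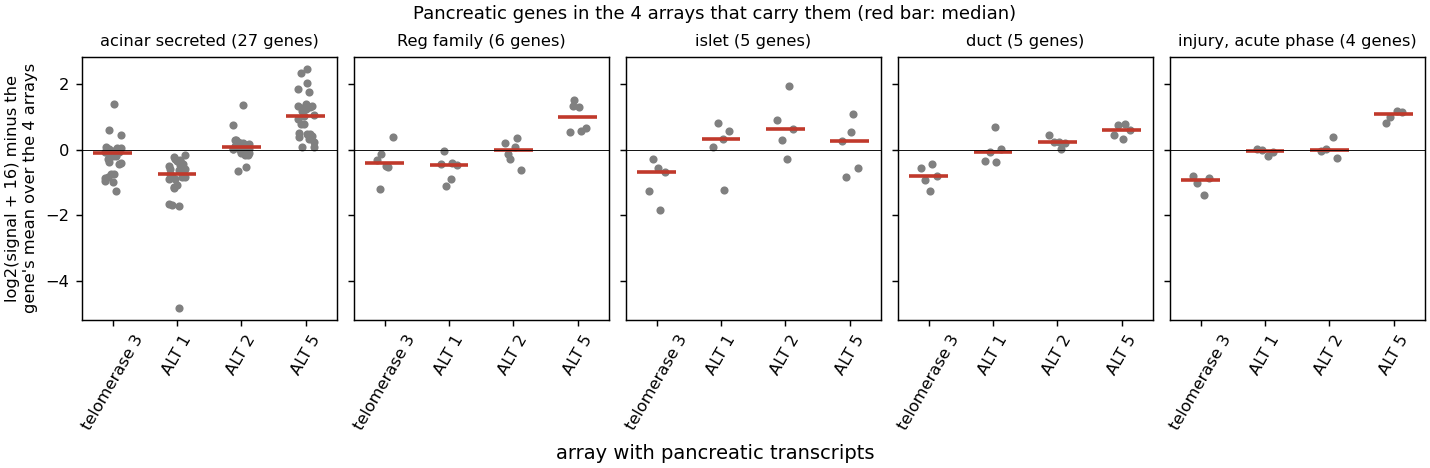
Log2(signal + 16) of each counted gene, minus its own mean over the 4 arrays with pancreatic transcripts, by array and list; each dot is a gene and red bars are medians. By median, acinar secreted genes are lowest in ALT 1 and highest in ALT 5, while genes of the duct and injury lists are lowest in telomerase 3. The point below −4 is Ctrc in ALT 1.

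The same difference can be read inside each telomere group, from sets of arrays that share none. Within ALT it sets arrays 1, 2 and 5 against 3 and 4; within telomerase it sets telomerase 3 alone against the parental array, telomerase 1 and telomerase 2, so that value rests on 1 array. Of the 125 genes, 122 differed by at least 1 within ALT, 100 within telomerase and 97 in both. The 125 were chosen for no overlap over all 9 arrays, so their direction within each group was fixed by that choice. These counts are therefore no independent repeat of the difference, and the share of all tested genes that differ this much within each group was not counted. Acinar secreted genes had median differences of 7.10 within ALT and 6.89 within telomerase, and Reg genes of 5.34 and 5.23. For Ctrb1 the values were 7.57 and 9.14, where ALT 3 and ALT 4 had 77.8 and 26.6 and the telomerase arrays 13.2 or less. The duct list had medians of 1.15 and 0.82, and the islet list of 1.67 and 0.74.

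**Figure D4:**
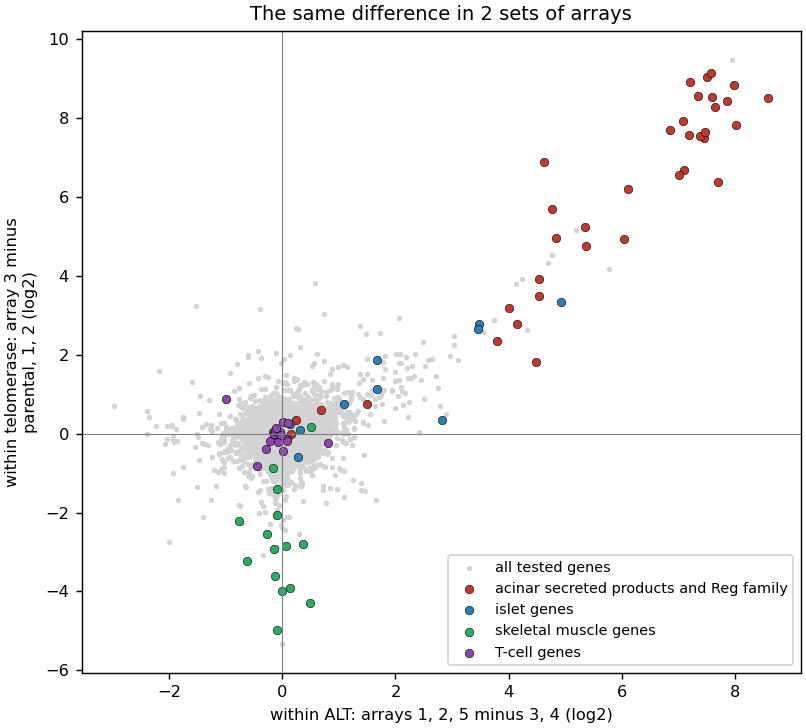
Difference of mean log2(signal + 16) within the ALT arrays (x) against that within the telomerase and parental arrays (y), 1 point per tested gene, with 4 sets coloured. Most acinar and Reg genes lie above 2 on both axes, muscle genes are low only on the y axis, and T-cell genes lie around 0.

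Probe sets of a gene did not always give the same result. Of the 125 higher genes 57 had a further probe set of their own; all further ones were also counted for 18, and at least 1 was not for 39. The same held for all 4 of the lower genes that had one. Among the genes named here, at least 1 further probe set was not counted for Pla2g1b, Iapp, Erp27, Cldn3, Dsp, Dsg2 and Cp. This was also the case for Klf9, Zbtb16, Tob1, Retreg1, Camk2n1, Mpdz and Tnni2. Fank1 was at 2104 to 4668 against 67.0 to 94.6 on a probe set whose name ends in _s_at, while its 3 other probe sets read 1.28 to 30.8 in every array. Fzd3, a Wnt receptor, was at 239 to 2024 against 13.5 to 28.1 on another _s_at probe set, and its 5 other probe sets stayed at 1.27 to 25.9. Trim62 showed the same on a probe set ending in _x_at, with 123 to 1132 against 4.58 to 29.0. These endings mark probe sets that can match more than 1 transcript, so the gene behind these signals is uncertain.

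Other counted genes encode secreted proteins and regulators; these examples were picked after their values were seen and stand for no group. Ttr, a carrier of thyroid hormone made in liver and islets, was at 131 to 303 against 2.86 to 11.4 (3.15, SE 0.24), Cp, ceruloplasmin, at 275 to 570 against 27.6 to 81.3 (2.58, SE 0.29), and Crp, the C-reactive protein, at 45.0 to 93.2 against 3.77 to 11.8 (1.73, SE 0.21). The hepatocyte list had 1 of 4 tested genes counted, Ttr, and its defining marker Alb was at 36.5 to 120 against 16.3 to 21.8, with a difference of 0.84 (SE 0.28). Among transcription factors, Klf15 differed by 2.31 (SE 0.35), Zbtb16 by 1.97 (SE 0.21) and Klf9 by 1.65 (SE 0.20). Derl3, which serves the removal of misfolded secretory proteins, differed by 1.80 (SE 0.34).

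Few genes were lower in the arrays with pancreatic transcripts. Glycam1, a mucin of lymph node vessels, was at 3.94 in telomerase 3, 26.4 in ALT 1, 6.44 in ALT 2 and 12.3 in ALT 5 against 55.6 to 186 (−2.29, SE 0.35). Foxl2, a transcription factor of ovary and pituitary, was at 18.5 to 65.7 against 119 to 157 (−1.56, SE 0.19); its other probe set read 1.00 to 19.0 in all arrays. Cbarp, a regulator of calcium channels, was at 1.35 to 14.8 against 46.5 to 73.2 (−1.77, SE 0.21), below the added 16 on the first side, and overlapped on its other probe set, at 14.4 to 43.7 against 16.6 to 59.6. Ddn was at 34.9 to 75.4 against 85.4 to 316 (−1.44, SE 0.28). Mpdz was at 3.73 to 20.6 against 29.3 to 59.5 (−1.42, SE 0.24), and its other probe sets were not counted. Both genes stayed counted in all 9 recounts without 1 array. With the mean of a gene's probe sets, Foxl2, Cbarp and Mpdz were not counted. Ubd, a ubiquitin-like protein induced by inflammation, was at 34.0 to 55.0 against 76.2 to 167 (−1.16, SE 0.21). Without telomerase 3, its difference was −0.74 and it was not counted. Of the 9, 5 differed by at least 1 in both telomere groups, where the direction was fixed by the choice of genes with no overlap. Tnni2, Mybpc2 and Cmya5 are muscle genes, and they were highest in the parental and telomerase 1 arrays: Tnni2 was at 1059 and 445 there, at 14.4 to 26.4 in the other arrays without pancreatic transcripts, and at 3.20 to 13.6 in those with them. Without telomerase 3 the differences of Tnni2 and Cmya5 were −0.63 and −0.40 and neither was counted; Cmya5 was also not counted without the parental array or without telomerase 1. Without the 2 muscle-bearing arrays Tnni2 and Cmya5 were no longer counted, 7 of the 9 remained among 11 counted as lower, and all 125 remained among 144 counted as higher.

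Lists for T cells and for most other tissues had no gene counted. Over all tested genes, 1.01% were counted as higher and 0.0728% as lower. By that share alone, lists of this length would hold few or none, so these counts say little about the lists. Of 18 tested T-cell genes 0 were counted in either direction, and their median difference was −0.07; the largest was −0.59 for Cd5, a receptor that dampens T-cell receptor signals. None of 11 immature thymocyte, 19 stromal, 8 endothelial, 13 myeloid, 8 B-cell, 3 cytotoxic, 23 cell cycle, 16 ribosomal and 13 telomere maintenance genes was counted, and their medians lay between −0.27 and 0.11. Single members went further, with overlap: the lowest difference was −1.56 in the cytotoxic list and −1.25 in the immature thymocyte list. Gzma, of the cytotoxic list, was at 644, 312 and 341 in ALT 1, ALT 2 and ALT 5. It was at 5066 and 2150 in ALT 3 and ALT 4. In telomerase 3 it was at 11524, against 6139 to 8109 in the parental array, telomerase 1 and telomerase 2. Collagen signals overlapped: Col3a1, a fibrillar collagen, was at 551 to 2288 with and 408 to 2037 without (−0.56, SE 0.55). Of 4 tested adipocyte genes 0 were counted; Car3, a carbonic anhydrase of fat and slow muscle, was at 3288 in the parental array and 1820 in telomerase 1 and at 6.65 to 106.5 in the others. None of the erythroid genes passed the filter, so blood could not be assessed. The muscle list had 1 of 15 genes counted as lower and a median of −1.21, with −0.10 within ALT and −2.86 within telomerase, where the muscle-bearing arrays are.

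The ALT comparison could be tested, since the labels give its groups. The passaged telomerase tumours grew in recipients kept on the drug that TERT-ER needs, and the ALT tumours came from recipients on vehicle. Every ALT difference in this report can therefore not be told apart from an effect of the drug, which was not tested. With a term for pancreatic transcripts, 2459 genes differed between ALT and telomerase arrays (19.9% of those tested; limma, adjusted p below 0.05), 1051 higher and 1408 lower in ALT. Without the term, 3065 were called (24.8%), 1293 higher and 1772 lower. The split by direction depended on scaling: after quantile normalisation 1390 were higher and 1203 lower, with the term. In both fits 2360 genes were called in the same direction, which is 77.0% of those called without the term and 96.0% of those called with it; 99 were called only with it and 705 only without it. None of the 705 was among the 134 genes that differed between the sides. That difference adds to their spread in the fit without the term, so few of the 134 could be called there. The standard error of the ALT difference was 1.08 times as large with the term at the median gene, and smaller for 2339 genes. Without telomerase 3, the 1 telomerase array with pancreatic transcripts, 1540 genes were called, and without the 2 muscle-bearing arrays 1148.

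Acinar genes had large ALT differences that were smaller with the term. Of the arrays, 3 of 5 ALT and 1 of 4 telomerase-positive ones carried them. The change between the fits is set by this split and by the size of a gene's side difference. It is therefore no separate result about acinar genes. Zg16 went from 3.05 to 0.06, Clps from 3.51 to 0.60 and Ctrb1 from 3.75 to 0.89. Neither fit called any of these genes: the limma adjusted p-values of Zg16, Clps and Ctrb1 were 0.403, 0.320 and 0.279 without the term and 0.920, 0.161 and 0.0771 with it. Over all tested genes, 24.8% were called without the term and 19.9% with it. Of the 134 genes, 1 passed without the term, Retreg1 (adjusted p = 0.0195), and 7 with it (limma). Besides Retreg1, these were Pnliprp1, a lipase-related protein, with an ALT difference of 0.99 (SE 0.24, adjusted p = 0.0157), Krt8 with 0.71 (0.0451), Mt1 with 0.85 (0.0275), Zbtb16 with 0.85 (0.0139), Prom1 with 0.78 (0.0335) and Camk2n1 with 0.54 (0.0383). Retreg1 stayed called in all 9 fits that leave out 1 array, and the others did not: Pnliprp1 was not called without ALT 3 or ALT 4, Zbtb16 without telomerase 3 or ALT 4, Mt1 without the parental array, telomerase 3 or ALT 4, and Prom1 without telomerase 1, telomerase 3 or ALT 3. Krt8 was not called without telomerase 1, telomerase 3, ALT 1, ALT 2 or ALT 3, and Camk2n1 without the parental array, telomerase 1, telomerase 2, ALT 2, ALT 3 or ALT 4. Without telomerase 3 the ALT difference was 0.38 for Krt8, 0.54 for Mt1 and 0.83 for Camk2n1. Further probe sets of these genes gave ALT differences of 0.30 and −0.21 for Zbtb16 and 0.06 for Camk2n1. They gave 0.78 and 0.39 for Krt8, 0.56 for Mt1 and 0.62 for Retreg1. For Pnliprp1 the 2 ALT arrays without pancreatic transcripts had 51.0 and 38.9 against 2.38 to 10.3 in the telomerase-positive ones, while telomerase 3 with 8319 lay within the ALT range of 7656 to 12583.

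**Figure D5:**
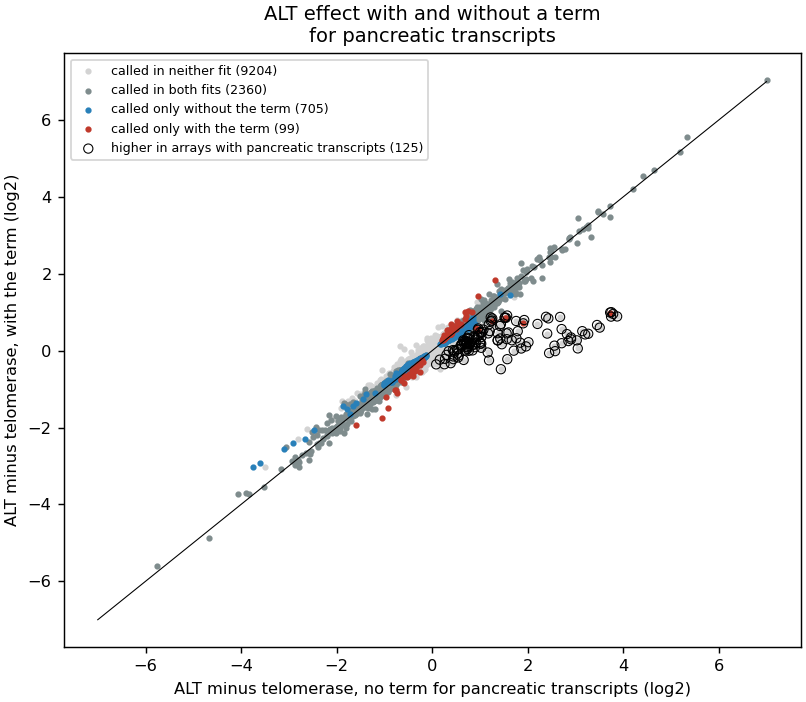
ALT minus telomerase difference (log2) without (x) and with (y) a term for pancreatic transcripts, 1 point per tested gene; colours give the calls at an adjusted p of 0.05 and circles mark the 125 genes that were higher in arrays with pancreatic transcripts. Most genes lie near the diagonal. The circled genes reach 3.87 on the x axis and stay at or below 1.00 on the y axis. A gene's distance from the diagonal is set by its difference between the sides, so this shift is no separate result.

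Of the genes called only with the term, Cdh1, E-cadherin of epithelial junctions, was at 347 in telomerase 3, 292 in ALT 1, 222 in ALT 2 and 360.5 in ALT 5, at 251, 322 and 171 in the parental, telomerase 1 and telomerase 2 arrays, and at 29.7 and 19.8 in ALT 3 and ALT 4. Its ALT difference was −1.05 without the term (adjusted p = 0.295) and −1.74 with it (SE 0.41, adjusted p = 0.0122). The low values are those of ALT 3 and ALT 4 alone: the side difference was 2.90 within ALT and 0.50 within telomerase. The ALT difference was −2.67 without telomerase 3, and it was no longer called without ALT 3. Zfp629, a zinc finger protein, went from −0.43 (0.0712) to −0.58 (0.00238), Kank1, which regulates actin, from 0.75 (0.0874) to 1.03 (0.00605), and Galnt3, a mucin-type glycosyltransferase, from −0.59 (0.144) to −0.85 (0.0124), with limma adjusted p-values in parentheses; Galnt3 was not called without telomerase 3. Of the genes called only without the term, Psme4, a proteasome activator, had −0.26 (0.0161) without and −0.23 (0.0506) with it, and Ing2, a chromatin reader, 0.33 (0.0184) and 0.30 (0.0501). Lef1, which drives thymocyte maturation with its relative Tcf7, was lower in ALT in both fits, by −1.26 with the term (limma adjusted p = 4.76e-05) and by −1.29 without it.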

How the data were processed

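Total RNA of 9 tumours was labelled with biotin and hybridised to arrays. The deposited intensity of each of 45101 probe sets is a MAS5 signal from the authors, per the submitters' processing notes, with settings not given in the sources used here. Intensities are linear, background is unknown without detection calls, and precision is limited by the small number of arrays. The table was used as deposited, with no further normalisation.

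Of the probe sets, 34945 named 1 gene, 932 several and 9211 none. The probe set brightest on average stood for each of 18193 genes, and genes in the lowest 40% of probe sets by mean were left out, which gave 12368. Of 415 listed genes 361 matched and 290 were tested. log2(signal + 16) was fitted with limma 3.58.1 in R 4.3.3, with terms for side and telomere group, an intensity trend and Benjamini-Hochberg adjustment of two-sided p-values over all tested genes; the scripts were tested on simulated data. Named genes were drawn from the 5 markers and the called genes with the largest difference in each direction, up to 15. Further ones came from up to 6 members of each list with the largest difference. For the ALT effect they were drawn from the 8 genes with the smallest p called in 1 fit only and the 5 whose estimate moved most. Not all of these are named, and others were chosen after their values were seen. The arrays, lists and tests were chosen with earlier results of these data known. Sequences are from RefSeq, GRCm38.p6. Plots used Python 3.11.15 and matplotlib 3.10.9. Alternatives are given with the closing section: the filter, pseudocount, scaling, probe set rule, parental array, replicate numbers, variance model, thresholds and arrays left out.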

Additional observations from a re-analysis of the deposited data

Results flagged for a closer look

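Of 128 groups of values searched for a single distant array, 2 had one; chance alone marks about 1 in 20 such groups. Cpb1, a carboxypeptidase of acinar cells, was at 50.5 in ALT 3, set apart from the other arrays without pancreatic transcripts, whose nearest was at 16.3 and lowest at 8.28. Ctrc was at 59.1 in ALT 1, set apart from the other arrays with pancreatic transcripts, whose nearest was at 5501 and highest at 8779.

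Upk1b, a membrane protein of urothelium and mesothelium, moved in opposite directions in the telomere groups. Within ALT it was lower in the arrays with pancreatic transcripts (44.5, 17.3 and 4.16 in ALT 1, 2 and 5 against 80.1 and 233 in ALT 3 and 4), by −2.17 on the log2 scale. Within the telomerase arrays it was higher, by 1.60 (795 in telomerase 3 against 187 to 342). The difference between these values was not tested.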

How the results depend on the processing

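The genes counted as higher (125) and lower (9) were recounted under each alternative. A filter at 60% gave 79 and 5, each probe set taken alone gave 194 higher, a minimum difference of 2 gave 65 and 1, and no minimum gave 278 and 148. The lower count was 2 with a pseudocount of 64, 5 with the mean of a gene's probe sets, 60 within ALT arrays only and 104 within telomerase and parental arrays only. Leaving out 1 array in turn gave 119 to 153 higher and 8 to 38 lower; the lower count was 38 without telomerase 3, 24 without ALT 4 and 16 without ALT 1. Genes with an ALT difference (2459; 1051 higher, 1408 lower) numbered 5021 (1973 and 3048) by probe set and 1148 (504 and 644) without the muscle-bearing arrays, a setting chosen after seeing the data. Leaving out 1 array gave 1540 to 2591 (703 to 1125 higher, 837 to 1466 lower). With the replicate numbers as a replicate block the ALT counts were 1502 (593 and 909), and the side counts 108 and 10. Same-numbered telomerase and ALT arrays deviated with correlations of −0.302, −0.402 and −0.572, but each such pair lies on opposite sides; telomerase and ALT arrays of 1 side had 0.387 to 0.452, so these correlations do not tell whether the numbers pair the samples, and the labels give no shared origin. Leaving out an array raised some counts and lowered others, and why the counts changed was not tested. Signs were compared for the 24 marker and top called genes of the side comparison and for the 21 genes picked by rule for the ALT effect. The setting with each probe set taken alone was left out of this comparison. No side difference of the 24 and no called ALT difference of the 21 changed sign. Some other named genes with small side differences did. Gata6 went from −0.004 to 0.05 within ALT, Hnf4a from −0.10 to 0.02 within telomerase, and Rab27b from 0.10 to −0.004 within telomerase. The split of ALT calls turned to more higher (1390) than lower (1203) after quantile normalisation. The uncalled ALT difference of Zg16 (0.06) ran from −0.11 without ALT 5 to 0.22 without ALT 1, and was −0.21 with the replicate block. Signals near or below 16 have no dependable order.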
